A study of Mus musculus with 22 samples.

Results

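The comparison described here set the liver of intact male mice against that of intact females. It comprises 2 of the 22 two-colour Agilent whole-genome arrays of the study, chosen by their labels as the sham male over sham female hybridisations. The animals of both sexes were ICR mice aged 8 weeks that had undergone sham surgery and received vehicle injections, and they kept their pituitary. The sample labels call these mice intact and untreated, without hormone treatment. On array 1 a pool of liver RNA from 4 males was labelled with the dye read in red and a pool from 3 females with the dye read in green. On array 2 the dyes were exchanged: a pool from 3 males was read in green and a pool from 3 females in red. Each value is therefore a ratio of pools, and the spread between individual mice was not measured. The RNA had been amplified as antisense RNA before labelling. For reference, 2 arrays of hypophysectomised (Hypox) males over Hypox females, whose pituitary had been removed in adulthood, and 2 arrays of Hypox males over females killed 30 min after an injection of growth hormone (GH) were used. The Hypox pools held 3 males and 3 females on array 1 and 3 males and 2 females on array 2.

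The liver is among the organs in which male and female rodents differ most in gene expression. The pituitary of male rodents releases GH in pulses separated by pauses, whereas that of females releases it almost continuously. In hepatocytes GH binds its receptor and activates the transcription factor STAT5b, and the repressors Bcl6 and Cux2 are known to act on sex-dependent genes alongside it. The genes concerned are known to include many enzymes that oxidise and conjugate steroids, drugs and fatty acids, the carriers that move such compounds, and proteins that the liver secretes.

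Males and females differed in 2294 of 26207 genes tested (8.75%), of which 1315 were higher in males (5.02%) and 979 lower in males (3.74%). The counts given below for gene lists are to be read beside these shares. A gene was called when the limma adjusted p was under 0.05 and both arrays went the same way. Values are log2 ratios of male over female, given as the mean of the 2 arrays ± the standard error (SE) of the fit to all 22 arrays, so a value of 1 is a 2-fold excess in males. At 16-fold or more 13 called genes were lower in males and 5 were higher. Where a sex was not well above background on either array, the ratio is only a lower limit on the difference. This held for 39 called genes in females and 11 in males, so the counts of the 2 sides are not on equal terms. At 4-fold or more the counts were 64 lower and 57 higher, and at 2-fold or more 159 lower and 206 higher. Called differences of at least 1.5-fold numbered 879. Without array 1 of the sham comparison 969 genes were called and without array 2 927, the remaining array being assumed to vary like the other comparisons. With plain median centring in place of the loess 425 were called, with the 2 arrays fitted alone 633, and with a model linking all 10 groups 4118. The share higher in males was 57.3%, against 50.7% with the scanner's own log ratio (1374 higher, 1334 lower) and 51.1% with the deposited value table (1207 higher, 1155 lower). The median log2 ratio of all genes tested was -0.0055. The ratios of array 1 and array 2 had a correlation of 0.691 over genes, which is a description because genes share their pools. A total of 9 genes passed the adjusted p but went opposite ways on the 2 arrays and were not called. Between 69.5% and 74.6% of the spots in a channel of these 2 arrays were well above background.

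**Figure D1:**
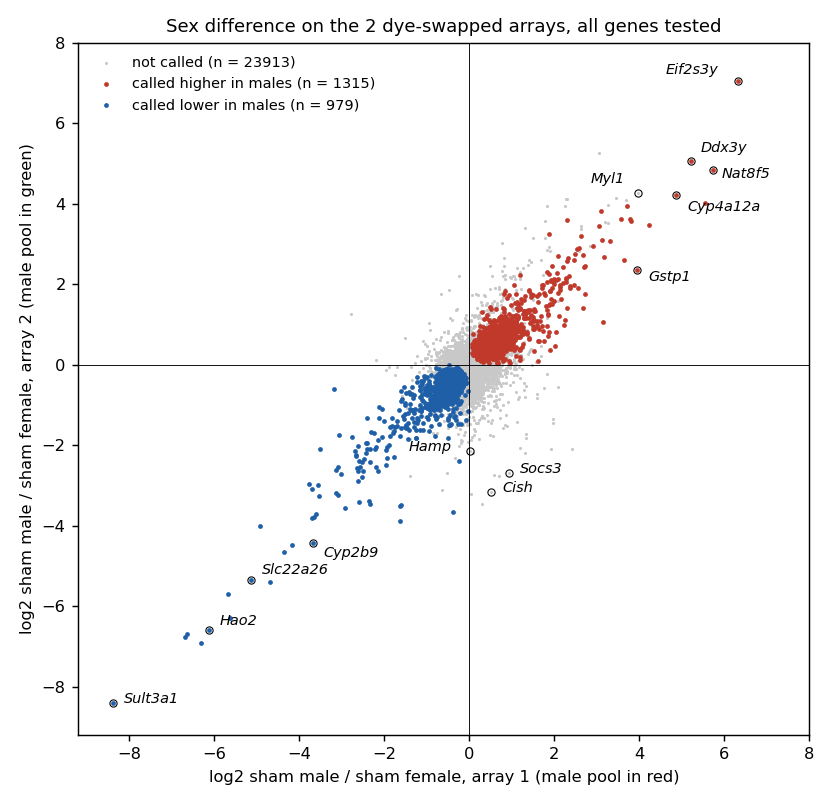
Log2 ratio of sham males over sham females on array 1 (horizontal axis) and array 2 (vertical axis), each point 1 of 26207 genes tested, with the 1315 genes called higher in males in red, the 979 called lower in blue and the rest in grey. Sult3a1 and Hao2 lie near the lower end of the diagonal and Eif2s3y at its upper end, while Cish and Socs3 lie off it, above 0 on array 1 and below 0 on array 2.

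The largest falls in males reported here were genes of metabolism and transport. Sult3a1, a cytosolic sulfotransferase, had log2 ratios of -8.39 and -8.40 on the 2 arrays, a 337-fold excess in females (-8.40 ± 0.67, adjusted p = 3.8e-06). Hao2, a peroxisomal hydroxyacid oxidase, had -6.12 and -6.60 (82.2-fold higher in females), with a mean of -6.36 ± 0.24 and an adjusted p of 4.8e-09. In both genes each array showed a loss in males of a size that the other array nearly matched. Sult2a2, which sulfonates steroids and bile acids, had -5.62 and -6.31, and its other probe -2.98. The carriers Slc22a26 (-5.14 and -5.34) and Slc22a29 (-4.93 and -4.02) belong to the organic anion transporters. The cytochromes P450 Cyp2b9 (-4.06 ± 0.12), Cyp2c37 (-3.76 ± 0.25, other probe -1.58), Cyp4a14 (-3.37 ± 0.27) and Cyp2c38 (-3.28 ± 0.27), the acyl-CoA thioesterase Acot3 (-3.40 ± 0.26) and the proton pump subunit Atp6v0d2 (-3.40 ± 0.20) followed.

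On the male side 3 of the 12 largest rises were Y-linked: Eif2s3y (6.32 and 7.04 on the 2 arrays), Ddx3y (5.22 and 5.07) and Kdm5d (3.71 and 3.94). These genes match the sexes given in the labels on both arrays. The largest rise of a gene outside the Y chromosome was that of Nat8f5, a member of the N-acetyltransferase 8 family, with 5.73 and 4.82 (38.8-fold higher in males; 5.28 ± 0.43, adjusted p = 4.7e-06). Cyp4a12a, a fatty acid hydroxylase, had 4.87 and 4.22 (23.3-fold; 4.54 ± 0.25). Nat8, which acetylates cysteine conjugates, had 4.23 and 3.48. Elovl3, which elongates saturated and monounsaturated fatty acids, had 3.78 and 3.63, among the closest pairs of array values in the list. Tff3, a peptide secreted with mucus (3.69 ± 0.16), the adhesion receptor Adgrv1 (3.25 ± 0.16, another probe 1.83), the hydrogen peroxide-forming oxidase Nox4 (3.19 ± 0.18, other probe 2.41), the glutathione transferase Gstp1 (3.15 ± 0.32) and the pheromone carrier Mup1 (3.12 ± 0.57) followed. Gstp1 had 3.95 on array 1 and 2.35 on array 2, and Mup1 had 3.64 and 2.60.

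**Figure D2:**
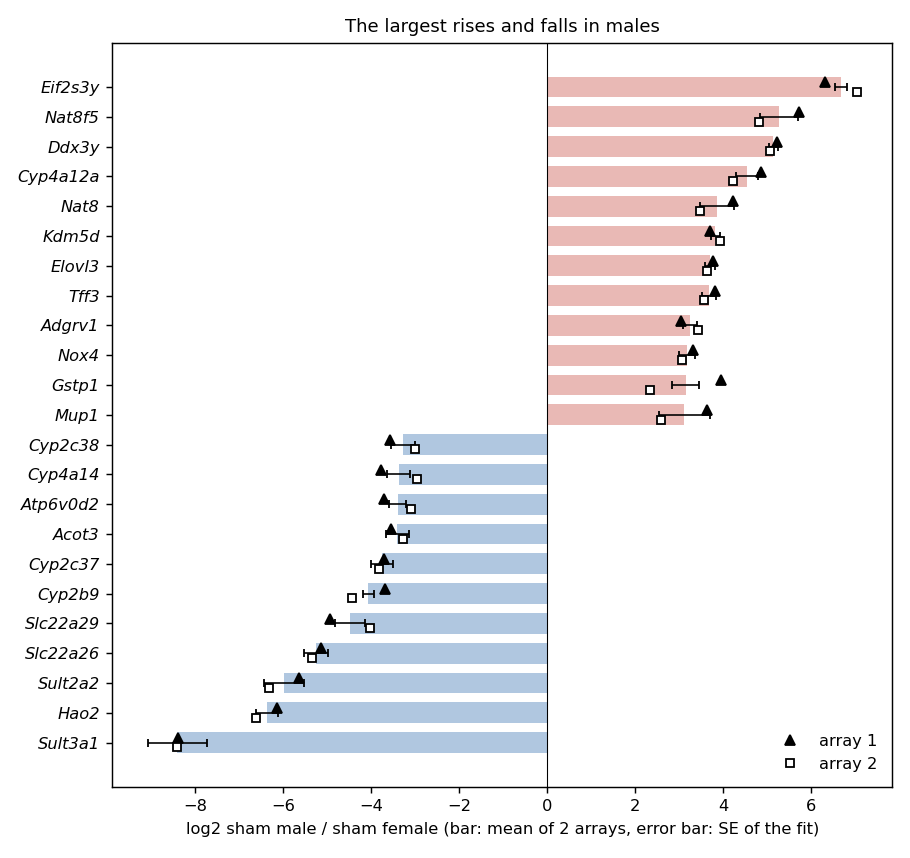
Log2 ratio of sham males over sham females for the largest rises (red) and falls (blue) among called genes with a gene symbol that are reported here. Bars give the mean of the 2 arrays, error bars the SE of the fit, triangles array 1 and squares array 2, and both arrays of each gene lie on the same side of 0, from -8.40 for Sult3a1 to 6.68 for Eif2s3y.

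The 250 bases before the start of a gene, from RefSeq on GRCm38.p6, were searched for TTCNNNGAA, the letters that STAT5 proteins are known to bind. These letters read the same on both strands. Of 27025 genes with such a window 8.13% held a match. Among tested genes the share was 7.47% (822 of 10998), against 7.03% of genes called higher in males (43 of 612) and 8.56% of genes called lower (44 of 514). These shares lie close together, and a match is a run of letters, not a measured binding site. Of the genes called at least 4-fold lower 3 of 31 held a match, and of those at least 4-fold higher 1 of 26. Among the largest differences named above, Sult3a1 and Slc22a26 on the female side and Nox4 on the male side held 1 match each. Cyp4a12a, Elovl3, Tff3, Mup1, Sult2a2, Atp6v0d2 and Cyp4a14 had no window and were not searched, and the others had a window without a match. The windows with a match are shown, with the match in capitals: Sult3a1 at chr10:33857472-33857721 on the plus strand, Slc22a26 at chr19:7802668-7802917 on the minus strand and Nox4 at chr7:87246399-87246648 on the plus strand. The matches begin at positions -109, -141 and -222, counted in bases from the gene's start.
Sult3a1: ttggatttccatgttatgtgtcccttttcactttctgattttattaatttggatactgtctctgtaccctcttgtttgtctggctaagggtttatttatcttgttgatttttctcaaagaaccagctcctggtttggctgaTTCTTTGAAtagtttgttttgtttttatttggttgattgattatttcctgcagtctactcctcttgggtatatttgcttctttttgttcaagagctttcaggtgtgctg
Slc22a26: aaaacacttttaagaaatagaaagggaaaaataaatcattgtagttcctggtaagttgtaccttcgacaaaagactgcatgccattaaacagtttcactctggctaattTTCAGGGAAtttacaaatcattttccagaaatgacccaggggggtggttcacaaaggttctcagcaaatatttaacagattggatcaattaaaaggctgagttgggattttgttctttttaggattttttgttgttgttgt
Nox4: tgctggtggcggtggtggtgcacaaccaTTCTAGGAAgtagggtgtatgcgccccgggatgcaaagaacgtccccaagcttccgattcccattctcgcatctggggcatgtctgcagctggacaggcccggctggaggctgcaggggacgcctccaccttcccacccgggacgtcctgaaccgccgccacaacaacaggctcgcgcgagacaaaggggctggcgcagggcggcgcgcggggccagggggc

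Several genes that differ between the sexes have a near copy beside them, and the windows of 2 such pairs on chromosome 7 are shown because the members moved together. Capitals mark the letters in which a pair differs. Cyp2b9 (chr7:26173159-26173408) and Cyp2b13 (chr7:26061245-26061494), both on the plus strand, matched in 248 of 250 letters (99.2%). Cyp2a4 (chr7:26306942-26307191) and Cyp2a5 (chr7:26835089-26835338), also on the plus strand, matched in 245 of 249 letters (98.4%) once shifted by 1 base. A probe for a member of such a pair may also bind RNA of the other, which was not tested.
Cyp2b9: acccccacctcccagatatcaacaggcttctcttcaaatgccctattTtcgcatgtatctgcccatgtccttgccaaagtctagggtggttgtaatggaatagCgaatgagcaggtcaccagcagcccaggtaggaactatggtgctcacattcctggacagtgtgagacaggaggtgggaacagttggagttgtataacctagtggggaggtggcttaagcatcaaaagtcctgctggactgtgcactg
Cyp2b13: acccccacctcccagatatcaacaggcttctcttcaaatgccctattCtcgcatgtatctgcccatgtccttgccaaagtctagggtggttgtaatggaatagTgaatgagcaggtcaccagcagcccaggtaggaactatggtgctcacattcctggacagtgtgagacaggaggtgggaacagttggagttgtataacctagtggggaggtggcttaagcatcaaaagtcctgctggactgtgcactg
Cyp2a4: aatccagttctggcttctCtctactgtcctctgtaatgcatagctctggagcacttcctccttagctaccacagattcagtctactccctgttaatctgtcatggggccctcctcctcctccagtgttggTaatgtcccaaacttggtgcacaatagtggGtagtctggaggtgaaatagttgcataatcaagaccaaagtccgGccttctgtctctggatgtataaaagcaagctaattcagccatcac
Cyp2a5: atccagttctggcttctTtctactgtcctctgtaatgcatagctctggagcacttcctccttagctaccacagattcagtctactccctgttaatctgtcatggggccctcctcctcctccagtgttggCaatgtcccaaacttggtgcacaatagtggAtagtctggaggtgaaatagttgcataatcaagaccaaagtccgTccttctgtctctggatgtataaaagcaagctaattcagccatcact

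By contrast, the windows of Slc22a26 and Slc22a29, which moved together as well, matched in 37.1% of 213 letters at the best ungapped shift, and those of Nat8f5 and Nat8 in 32.9% of 216 letters.

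The P450 enzymes of the Cyp2 family, which oxidise steroids and foreign compounds, were lower in males in the Cyp2a, Cyp2b and Cyp2c groups and higher in the Cyp2d group. In the Cyp2b group 3 of 4 members fell and none rose. Cyp2b9 had -3.68 and -4.43 on the 2 arrays, Cyp2b13 had -2.93 and -3.57, and the phenobarbital-inducible Cyp2b10 had -3.09 and -3.24. Cyp2b19 did not pass (-0.04). In the Cyp2a group Cyp2a4 (-1.60 and -3.50) and Cyp2a5 (-1.63 and -3.88), which hydroxylate testosterone and coumarin, fell, and both were further from 0 on array 2 than on array 1. The other probe of Cyp2a4 had -4.11. Without array 2 neither gene was called. In the Cyp2c group 5 of 10 members fell: Cyp2c37, Cyp2c38, Cyp2c39 (-3.13 and -3.19), Cyp2c54 (-1.04 ± 0.18) and Cyp2c40 (-0.94 ± 0.15). Cyp2c29 (-0.34 ± 0.19) and Cyp2c70, which hydroxylates bile acids (0.09 ± 0.15), did not pass. Without array 1 the falls in the Cyp2c group numbered 3. Cyp2g1 had -2.36 and -3.38. In the Cyp2d group 5 of 6 members rose, and 4 with either array left out, led by the male-specific testosterone hydroxylase Cyp2d9 (1.66 and 1.08) and Cyp2d12 (0.84 and 0.76). With median centring 1 Cyp2d gene was called higher. None of the 3 Cyp1 genes passed (0 at an unadjusted p under 0.05), nor did Cyp2e1 (0.00 ± 0.14), which oxidises ethanol.

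In the Cyp3a group 3 of 5 members fell, with Cyp3a16 at -2.04 and -1.79, Cyp3a13 at -0.59 and -0.92 and Cyp3a44 at -0.54 and -0.65. The other probe of Cyp3a44 had -6.05 and the mean over its probes was -3.32, so that its size depends on the probe. With either array left out the falls numbered 2. The abundant Cyp3a11, a drug-oxidising enzyme, had 0.61 on array 1 and -0.89 on array 2 and did not pass. The Cyp4a group, whose members hydroxylate fatty acids at their end, was split: Cyp4a12a rose, whereas Cyp4a14 (-3.77 and -2.96), Cyp4a31 (-2.44 and -2.21) and Cyp4a10 (-1.86 and -1.54) fell, of which 1 was still called without array 1. A second probe of Cyp4a12a gave 2.58. Among the P450s of steroids and sterols Cyp7b1, which hydroxylates oxysterols and androgens, had 3.12 and 3.09. Cyp39a1, which also hydroxylates an oxysterol, went the other way with -2.47 and -2.35. Cyp17a1, of androgen synthesis, fell (-1.70 ± 0.18), and Cyp46a1, a cholesterol hydroxylase, rose (0.72 and 0.90). Cyp7a1, the rate-limiting enzyme of bile acid synthesis, did not pass (-0.52 ± 0.61).

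Fmo2 (-1.45 and -1.45), Fmo4 (-1.61 and -0.89) and Fmo1 (-1.51 and -0.96), which oxidise nitrogen and sulfur compounds, fell in males, while Fmo5 had 0.41 ± 0.14 and did not pass. The 2 hydroxyacid oxidases were opposed: Hao1, which oxidises glycolate, rose (1.21 and 0.94), and Hao2 fell. Of 12 sulfotransferases 7 fell and none rose. Below Sult3a1 and Sult2a2 came Sult1d1 (-1.78 and -1.65), the phenol sulfotransferase Sult1a1 (-1.51 and -1.56), the oestrogen sulfotransferase Sult1e1 (-1.34 and -1.32) and Sult1c2 (-1.45 and -1.20). The median of the 12 was -0.94, against -0.0055 for all genes tested.

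The glucuronosyltransferases, which attach glucuronic acid, ran the other way in their Ugt2b branch. All 5 members that rose were Ugt2b genes: Ugt2b1 (1.65 and 1.75), Ugt2b5 (1.06 and 1.21), Ugt2b38 (1.05 and 0.93), Ugt2b35 (1.02 and 0.88) and Ugt2b37 (0.86 and 0.48). Ugt1a1, which conjugates bilirubin, fell (-1.04 and -1.05). With median centring 1 glucuronosyltransferase was called higher and 1 lower. Of 23 glutathione transferases 4 rose and 7 fell. Gstp1 led the rises, followed by Gsta2 (1.71 and 0.96), Gsta1 (1.20 and 0.84) and the membrane-bound Mgst1, whose 0.96 and 0.04 lie far apart. Gstt3 (-1.30 and -1.43) and Mgst3 (-0.77 and -0.54) led the falls. Without array 1 of the comparison 2 glutathione transferases rose and 2 fell, and without array 2 these were 2 and 4. Of the glucuronosyltransferases 4 and 3 rose.

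Among 8 N-acetyltransferases Nat8f5 and Nat8 rose, and the arylamine acetyltransferase Nat2 (0.11 ± 0.14) did not pass. Of 13 carboxylesterases, which split esters of lipids and drugs, 7 rose and 1 fell. Ces3b had 1.68 ± 0.36, Ces4a 1.55 and 1.34 and Ces2b 1.87 and 0.81, whereas Ces1d, a triacylglycerol hydrolase, had -0.35 and -0.84. Of 17 aldehyde dehydrogenases 4 fell, by -0.39 to -0.78, and none rose. Adh4 rose (0.79 and 0.61). With median centring 1 carboxylesterase was called higher and no aldehyde dehydrogenase lower. Of the 15 aldo-keto reductases 3 rose by at most 0.38 and 3 fell: Akr1b7 (-2.19 and -2.56), the bile acid enzyme Akr1d1 (-0.80 and -0.62) and the progesterone-degrading Akr1c18 (-0.75 and -0.48). Leaving out array 1 or array 2 left 3 and 2 carboxylesterases called higher, 1 and 2 aldehyde dehydrogenases called lower, and 1 aldo-keto reductase called higher with 1 and 2 called lower.

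Of 23 hydroxysteroid dehydrogenases and steroid reductases 7 rose and 3 fell. The rises were led by enzymes of the Hsd3b cluster, some of which reduce steroids in rodent liver: Hsd3b4 (2.58 and 2.90), Hsd3b5 (2.33 and 2.64) and Hsd3b2 (1.62 and 1.56). Hsd3b6 (0.38 and 1.16) and Hsd3b3 (0.34 and 1.13) rose less. These genes are close copies, so that a probe may read more than 1 of them. Hsd11b1, which regenerates active glucocorticoid, fell (-0.20 and -0.69). In this list 4 rises and no falls were left without array 1, and 3 rises and 2 falls without array 2.

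In fatty acid metabolism the changes sat in few genes. Of 14 elongases and desaturases Elovl3 and Scd3 (0.29 and 0.36) rose and Fads1 fell (-0.59 and -0.50). Scd1, the main stearoyl-CoA desaturase, had 0.47 and 0.48 with an SE of 0.39 and did not pass. The peroxisomal thioesterases Acot3 (-3.53 and -3.27) and Acot4 (-2.42 and -1.95) fell, with Acss3 (-1.30 and -1.21), while the medium-chain synthetase Acsm2 (1.08 and 1.22) rose. Of 26 genes of fatty acid oxidation and targets of the receptor PPAR alpha 7 fell and none rose. Besides the Cyp4a genes these included Vnn1, a pantetheinase (-1.69 and -1.51), the peroxisomal enzyme Ehhadh (-0.96 and -0.67) and Cpt1a, which admits fatty acids to mitochondria (-0.69 and -0.22). Without array 1 of the comparison 1 fall was called, and without array 2 there were 5. Of 18 lipogenic genes Gpam rose (0.58 and 0.34) and the lipase-like Pnpla3 fell (-0.82 and -1.76). Fasn (-0.24 ± 0.16) and Dgat2 (-0.29 ± 0.11) did not pass. None of the 22 genes of cholesterol synthesis and uptake was called by limma (0 at an unadjusted p under 0.05), among them Cyp51 with -0.09 on both arrays.

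Of 28 genes of the urea cycle and amino acid breakdown 9 fell in males and none rose: Cth, of cysteine synthesis (-0.71 and -1.47), Got1 (-0.79 and -1.03) and Oat (-0.68 and -1.13) fell most. Arg1 (0.04 ± 0.16) and Tat (0.03 ± 0.26) did not pass. The 9 falls became 1 without array 1, 3 without array 2, 3 without the dye term and 2 with median centring, and with the muscle covariate described below 7 fell and 1 rose. Asns, which makes asparagine, rose (1.82 and 2.30). Among redox enzymes Nox4 (3.31 and 3.07), the subunits of glutamate-cysteine ligase Gclc (0.86 and 0.47) and Gclm (0.35 and 0.44) and catalase, Cat (0.83 and 0.37), rose, whereas the quinone reductase Nqo1 fell (-1.28 and -1.11). Of 14 genes of glucose output and glycogen only the kinase gene Pfkfb3 was called (1.60 and 0.92), and Pck1, of gluconeogenesis, had 0.07 and -0.74.

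**Figure D3:**
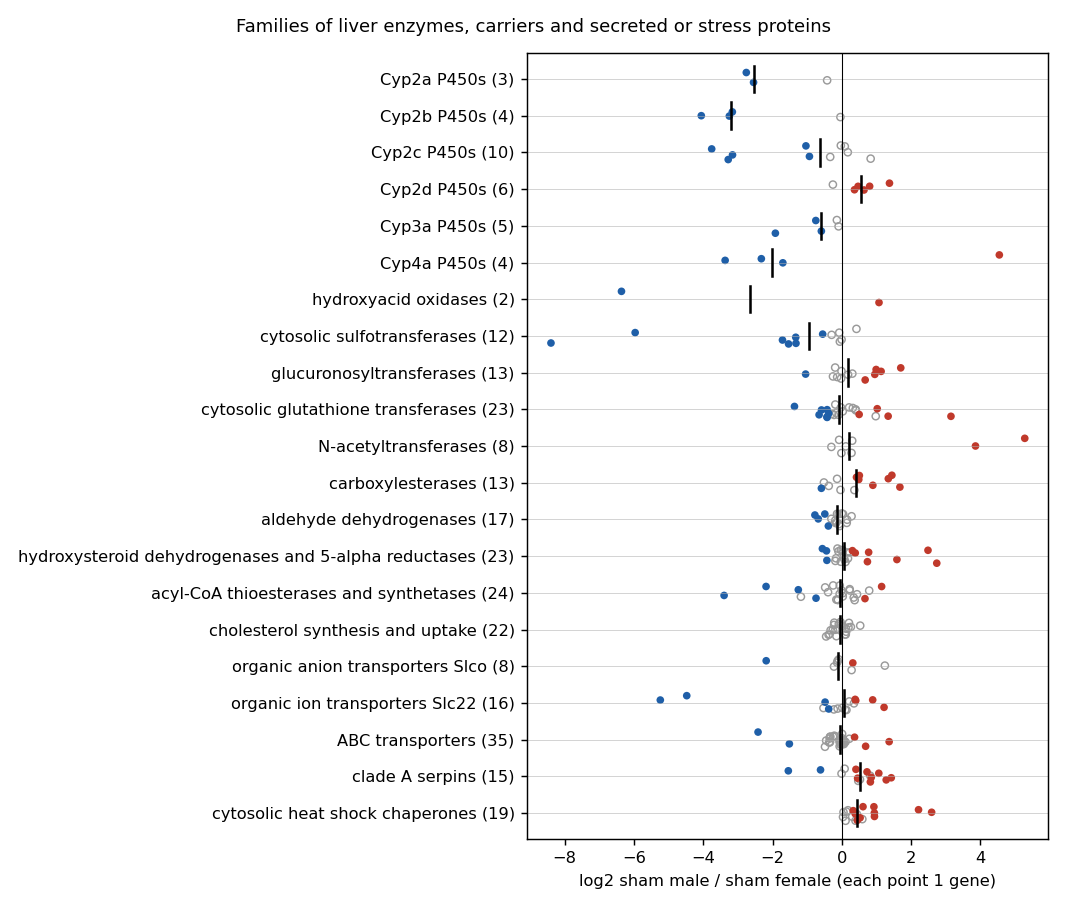
Log2 ratio of sham males over sham females for the members of 21 gene families (vertical axis, number of genes tested in brackets), with genes called higher in males in red, genes called lower in blue and genes that did not pass as open circles. The black bar is the family's median. The sulfotransferases extend to -8.40 with no red point, the carboxylesterases and heat shock chaperones lie mostly to the right of 0, and no gene of cholesterol synthesis is coloured.

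The carriers showed a few large differences among many members that did not pass. Of 16 Slc22 carriers 4 rose and 4 fell, and without array 1 these were 2 and 2, without array 2 4 and 2. Slc22a26 and Slc22a29 fell by over 4 log2 units, whereas their relatives Slc22a12, a urate carrier (1.29 and 1.15), and Slc22a30 (0.98 and 0.80) rose. Of 8 Slco carriers, which take up bile salts and hormone conjugates, Slco1a4 fell (-2.42 and -1.95) and the brain-type Slco1c1 rose (0.28 and 0.35). Over 13 alternatives the ratio of Slco1c1 ranged from 0.125 to 2.624, so that its size depends on the processing. Slco1a1 had 1.01 and 1.47 and did not pass (SE 0.40, adjusted p = 0.076). Of 35 ABC transporters 3 rose and 2 fell. The export pump Abcg2 rose (1.37 and 1.36). The drug export pump Abcb1a (-1.41 and -1.62) and the peroxisomal Abcd2 (-2.69 and -2.15) fell. The bile salt export pump Abcb11 did not pass (-0.34 ± 0.16).

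Of 18 bile acid and monocarboxylate carriers 4 fell and none rose, with Slc51b, of basolateral bile acid export, at -1.17 and -1.62 and Slc16a7 at -1.15 on both arrays, and 2 fell without array 2. Of 22 metal carriers the zinc importer Slc39a4 rose (0.54 and 0.64) and the iron exporter Slc40a1 fell (-0.61 and -0.43). Of 47 amino acid carriers 2 fell by at most -0.54, while 8.75% of all genes tested were called. None of the 14 glucose carriers was called by limma (3 at an unadjusted p under 0.05). Of 19 subunits of the V-type proton pump Atp6v0d2 (-3.70 and -3.09) fell and Atp6v0e2 (0.89 and 0.39) rose, and the paralogue Atp6v0d1 did not pass (0.12 ± 0.05).

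Of 41 nuclear receptors 5 fell and 1 rose in males. Esr1, the oestrogen receptor alpha, had -1.21 and -1.39 (-1.29 ± 0.13, adjusted p = 3.6e-05), and its other probe -0.30. The orphan receptor Esrrg (-0.91 and -0.93, other probe -0.03), the xenobiotic sensors Nr1i3, known as CAR (-0.75 and -0.94), and Nr1i2, known as PXR (-0.48 and -0.44), and the retinoid receptor Rxrg (-0.55 and -0.85) fell as well. Pparg, a regulator of fat storage, rose (0.84 and 1.14). With either array left out 2 falls were called in place of 5. Ppara (-0.08 and 0.22) and Hnf4a (-0.19 and -0.17) did not pass.

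Among 27 hormone and cytokine receptors the prolactin receptor Prlr fell (-1.74 and -1.55; -1.64 ± 0.27, adjusted p = 0.0019). The interleukin receptor chains Il1rap (0.66 and 0.76) and Il1r1 (0.86 and 0.34) rose, the latter called in 6 of 13 alternatives, and Il13ra1 (-0.72 and -0.60) fell. The GH receptor Ghr had 0.22 and -0.02 and the leukaemia inhibitory factor receptor Lifr -0.27 and -0.12, and neither passed. Of the receptor kinases and their partners Egfr rose (0.79 and 1.41, adjusted p = 0.014; other probes 1.05 to 1.85) and Klb, the partner in the receptor for the hormone FGF21, fell (-0.69 and -0.49). The very low density lipoprotein receptor Vldlr fell (-2.04 and -1.11), and Sort1, a sorting receptor for apolipoprotein B, rose (1.32 and 1.22, other probes 0.59 to 1.70).

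Of 19 sex-biased repressors and their partners 2 rose and 6 fell in males. The list was made of such genes with earlier results of these data known, so this count is not that of an unselected family. Bcl6 rose (2.16 and 1.62; 1.89 ± 0.28, adjusted p = 7.0e-04). Tox, a nuclear protein known from lymphocytes, had -2.68 and -2.27 (other probe -1.45), the cofactor Trim24 -1.93 and -2.05, and Cux2 -2.25 and -1.69. In each of these 4 genes the ratios of the 2 arrays lay on the same side and far from 0. Bcor, a partner of Bcl6 (-0.51 and -0.97, other probes -0.14 and -0.03), and Rsl1, a zinc finger repressor of male-specific genes (-0.48 and -0.38), fell by less. Cux1 was called higher (0.36 ± 0.07), but its other probes lay between -0.02 and 0.05. Zhx2 (0.10 ± 0.06) and Ezh1 (0.00 ± 0.15) did not pass. Without array 1 of the comparison 1 member rose and 5 fell, and without array 2 1 rose and 3 fell.

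In the GH signalling list Grb10, an adaptor that restrains growth factor signals, was the member of 21 that was called (1.26 and 0.82, other probes 0.13 to 0.50). Stat5b did not pass (-0.41 and -0.21). The feedback inhibitors that STAT5 induces differed between the arrays: Cish had 0.51 and -3.17, Socs3 0.94 and -2.70 and Socs2 -0.08 and -1.20, and none of them passed. The male pool of array 2 was therefore far below its female pool in Cish and Socs3, and that of array 1 was not. The median of 20 immediate-early genes was likewise 0.11 on array 1 and -0.66 on array 2, and that of 20 acute phase genes -0.18 and -0.92. Of the growth factor axis Igfals, a subunit of the complexes that carry Igf1 in blood, fell (-0.50 and -0.36), and Igf1 did not pass (-0.23 and -0.54). Of 30 liver transcription factors Foxa1 (0.85 and 0.41) and Klf15 (0.27 and 0.66) rose and Onecut2 (-0.27 and -0.53) fell, the last in 4 of 13 alternatives, while Onecut1 had 0.54 and -0.65 and Foxa2 -0.33 and -0.89 without passing. None of the 3 calls was left without array 1. None of the 17 clock genes was called by limma (3 at an unadjusted p under 0.05). The 225 zinc finger genes of the Zfp series held 9 called higher and 5 called lower, or 14 of 225 genes. The share called among all genes tested was 8.75%. With either array left out 6 Zfp genes were called.

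Among secreted proteins all 3 major urinary protein genes measured rose: Mup1 (3.64 and 2.60), Mup5 (2.56 and 1.89) and Mup4 (2.04 ± 0.46). They belong to a family of similar genes that probes may not separate. None of the 3 was called without array 1 or without array 2, and 1 was with median centring. Of 15 clade A serpins, most of them protease inhibitors of plasma, 8 rose and 2 fell. Serpina12 (1.09 and 1.76), Serpina9 (1.85 and 0.71), Serpina5 (1.27 and 0.86, other probe 0.47) and the thyroxine carrier Serpina7 (0.91 and 0.73) were among the rises. Serpina6, the carrier of glucocorticoid in blood, fell (-1.26 and -1.83). Serpina1d was called, but its 1.62 and 0.08 lie far apart. With median centring 1 serpin was called higher and 1 lower. Without array 1 4 serpins rose and 2 fell, and without array 2 5 rose and 1 fell.

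Among complement genes C6 (3.16 and 2.67), C9 (1.88 and 1.49) and C8b (1.49 and 1.72), which take part in the membrane attack complex, were higher in males. C8a was called too (1.90 and 1.51) but passed in 3 of 13 alternatives. C3, at the centre of the cascade (-0.19 and -1.49), and the lectin Mbl2 (-0.86 and -0.99) were lower, C3 in 5 of 13 alternatives. Over the 41 complement and coagulation genes tested 6 rose and 5 fell, against 2 and 1 without array 1 and 3 and 2 without array 2. Of the coagulation factors F7 (-0.38 and -0.45), F13b and F10 fell by at most -0.42. Lpl, the lipase of chylomicrons and very low density lipoproteins, rose (1.95 and 2.46), while Apoa4 (-0.74 and -0.38), Lcat, Apoa5 and Apom fell by less. Lpl is also expressed in skeletal muscle and fat, and the ratios of their markers are given below. Among acute phase genes Hamp2 (-2.59 and -3.42) and Orm3 (-2.62 and -2.64) fell, and Hamp, the iron hormone hepcidin, had 0.03 and -2.15 and was not called.

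Of 19 cytosolic heat shock chaperones 10 rose and none fell, with Hspa1a at 2.73 and 2.46, the small chaperone Hspb1 at 2.46 and 1.97, Hsph1 at 0.94 and 0.93 and Hsp90aa1 at 1.16 and 0.69. Hspa1a has other probes, which lay between 0.66 and 2.61. The 10 rises became 4 without array 1 and 7 without array 2. With median centring 2 rises were left. The constitutive Hspa8 did not pass (0.11 ± 0.20). Of 25 genes of endoplasmic reticulum stress and the amino acid response 7 rose and none fell, among them Asns, Sdf2l1 (1.63 and 0.88) and Creld2 (1.27 and 0.76), whereas the chaperone Hspa5 had 1.17 and 0.08 and did not pass. The 7 rises became 1 without array 1, 5 without array 2, 2 with median centring and 3 with the muscle covariate. The metal-binding metallothioneins Mt1 (-2.50 and -2.63) and Mt2 (-2.34 and -3.46) fell, as did the glucocorticoid-induced Fkbp5 (-1.03 and -0.94, other probes -0.71 and -0.24). Of 29 cell cycle genes 1 rose and 4 fell, with the cyclin Ccnd1 at -1.44 and -1.85. In this list 2 falls were called without array 1 and none without array 2.

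Among X-linked genes Xist, the RNA that coats and silences the inactive X, had -2.62 and -2.90, and Eif2s3x (-0.48 and -0.76), Ddx3x (-0.40 and -0.77) and Kdm6a (-0.31 and -0.39), which escape silencing, fell as well. Other probes of Eif2s3x ranged from -0.47 to 1.91, and the mean over its probes was 0.27. The Y-linked Uty rose (2.52 and 2.87), and Zfy2 had -0.01 and -0.06. Hepatocytes differ along the lobule, and of 17 genes typical of its centre 5 fell, including Axin2 (-0.98 and -0.74) and Glul, glutamine synthetase (-0.51 and -0.85). Of 16 genes typical of its rim 5 fell too, including the protease gene Ctsc (-1.81 and -1.33). Without array 1 the central genes had 2 falls and those of the rim 1, and without array 2 these were 1 and 2.

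None of the 8 hepatocyte markers tested was called by limma (5 at an unadjusted p under 0.05), and all 8 were well above background in both sexes. Their median was 0.15 on array 1 and -0.65 on array 2, 2 of the 8 being above 0 on both arrays and 2 below, with Alb at 0.17 and -0.82 and Ahsg at 0.11 and -1.37. Of 10 Kupffer cell and macrophage markers Clec4f (-0.48 and -0.72) and Vsig4 (-0.54 and -0.69) fell, against 1 fall without array 1 and none without array 2. All 10 were below 0 on both arrays, with a median of -0.60, and 9 fell with the muscle covariate described below. Of 12 endothelial and 13 stellate cell and fibroblast markers 1 each fell, and 8 of each were below 0 on both arrays. Neither fall was called without array 1 or without array 2. In whole tissue fewer cells of a type and less RNA per cell cannot be told apart. No marker of bile duct, lymphocytes, neutrophils, fat or acinar pancreas was called by limma, and 1, 3, 0, 3 and 0 of them in that order had an unadjusted p under 0.05. Alas2, a haem enzyme that also marks red cells, rose (2.27 and 2.06), while the haemoglobin genes Hba-a1 (-0.22 and -0.37) and Hbb-bt (-0.36 and -0.47) did not pass. Tff3, a gut marker, rose, and Tff2 (0.05 ± 0.57) and Spink4 (0.09 ± 0.74) did not pass.

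Of 35 skeletal muscle markers tested 34 had a ratio above 0 on both arrays, with a median of 1.03 on array 1 and 2.19 on array 2. Myl1, a myosin light chain, had 3.96 and 4.26, and Acta1, skeletal actin, had 3.27 and 3.51, but neither passed, and their SE were 1.25 and 1.03, against a median SE of 0.087 over all genes. With the slide as a random block both passed (adjusted p = 0.043 and 0.045 by limma). Mb, myoglobin (2.68 and 2.71), and the calcium pump Atp2a1 (0.83 and 0.83, other probe 2.30) were called. Those 2 calls became 12 of 35 with the 2 arrays fitted alone, 10 with the scanner log ratio, 11 with the deposited value table and 17 with the model linking all groups, and none without array 1 or array 2. The summed signal of the 35 markers, on a log2 scale, was 14.98 and 16.45 in the male pools and 13.87 and 13.95 in the female pools. All 35 markers were well above background in males and 34 in females. The fat markers Cfd (0.78 and 3.02) and Fabp4 (0.11 and 0.72) did not pass. On the arrays of Hypox males over Hypox females the muscle median was 0.02 and -0.08, and 30 min after GH it was 2.751 and -0.006. For Hypox females given 2 GH injections over Hypox females it was -2.918 and -2.655, and for Hypox over sham females 0.007 and 0.005. A large muscle ratio was thus not confined to the sham comparison. Muscle genes were treated as possible carry-over from tissue beside the liver, whose part in the other differences was not tested directly. With the muscle median of each array as a covariate, 2800 genes were called, 1696 of them among the 2294, and 50.5% were higher in males in place of 57.3%. With that covariate Lpl had 2.11 and Hspb1 1.95, and both were still called, whereas 22 of the 180 called genes named here no longer passed, among them Egfr (0.88), C8a (1.16), Nr1i2 (-0.31), Nr1i3 (-0.79), Rxrg (-0.55), Hsd3b3 (0.54), Hsd3b6 (0.56), Cpt1a (-0.49) and Atp2a1 (0.38).

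**Figure D4:**
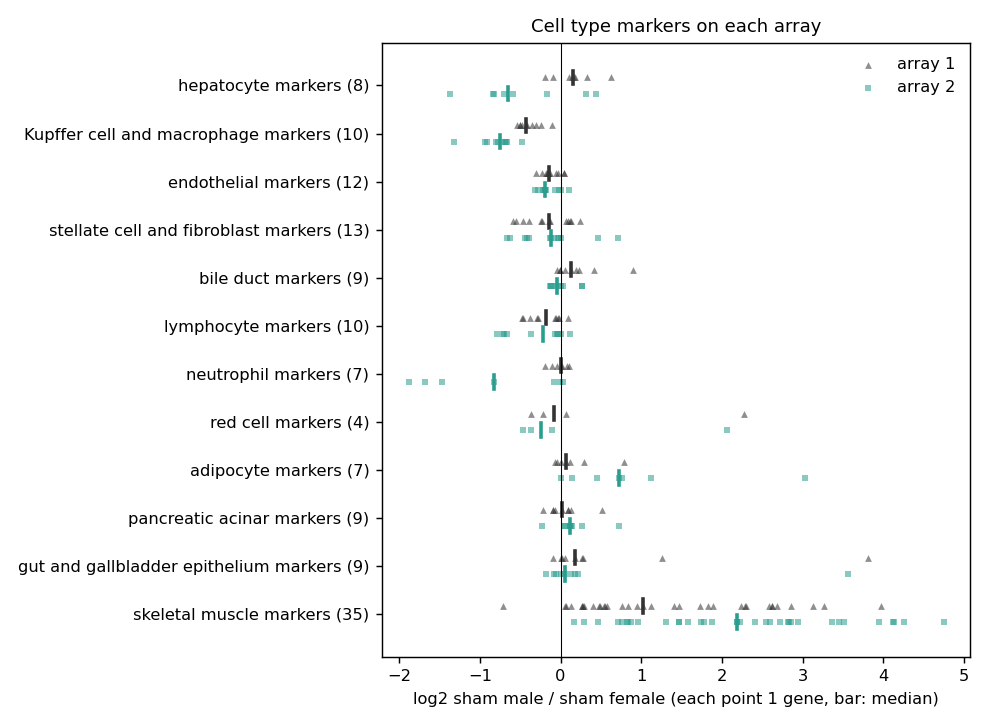
Log2 ratio of sham males over sham females on array 1 (triangles) and array 2 (squares) for markers of 12 cell types, with the number of genes tested in brackets and the median of each array as a bar. The skeletal muscle markers lie to the right of 0 but for 1 on array 1, with medians of 1.03 and 2.19, and the medians of the hepatocyte markers lie on opposite sides of 0 on the 2 arrays.

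Whether the sex difference depends on the pituitary was tested as the sex difference in sham mice minus that in Hypox mice, which share no array and no pool. The difference was called in 1487 of 26207 genes (5.67%). With the median centring 145 genes were called, without sham array 1 581, without sham array 2 809, without Hypox array 1 644 and without Hypox array 2 842, and with the model linking all groups 5808. The 1487 included 1066 of the 2294 genes called in sham mice (46.5% of them, and 71.7% of the 1487). The same sham arrays enter both lists, so part of this overlap is built in. In Hypox mice 426 genes (1.63%) passed the adjusted p between the sexes, and 89 of the genes called in sham mice passed there in the same direction. The Hypox arrays were scanned on another day and on other slides than the sham arrays, so that scan day and loss of the pituitary cannot be told apart in this contrast. Hao2 went from -6.36 in sham to -0.23 in Hypox mice (difference -6.13 ± 0.34, adjusted p = 6.6e-07), and Slc22a26 from -5.24 to -0.50 (-4.74 ± 0.39). Sult3a1 went from -8.40 to -1.25 (-7.15 ± 0.95) and Slc22a29 from -4.48 to -0.52 (-3.96 ± 0.48). Acot3 went from -3.40 to 1.07 (-4.47 ± 0.37). On the male side Cyp4a12a went from 4.54 to 1.02 (3.53 ± 0.36), Tff3 from 3.69 to 0.33 (3.36 ± 0.23), Nat8f5 from 5.28 to 2.17 (3.11 ± 0.61) and Adgrv1 from 3.25 to 0.16 (3.09 ± 0.23). Scara5, a ferritin receptor, went from 2.93 to -0.30 (3.23 ± 0.74), and Hspa1a from 2.59 to -0.41 (3.00 ± 0.43).

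The repressors were not called between the sexes in Hypox mice: Cux2 had 0.01, Trim24 0.45, Tox -0.51 and Bcl6 -0.17 there, and the difference from sham mice was called in each of the 4. The receptors Esr1 (0.15) and Prlr (0.20) likewise had small ratios in Hypox mice, and their difference from sham mice was called. For 14 of the 19 heat shock chaperones the difference was called, with a median of 0.43 in sham and -0.32 in Hypox mice. Sult2a2 stayed lower in Hypox males (-3.61, adjusted p = 0.0035), and its difference from sham mice did not pass (-2.36 ± 0.65, adjusted p = 0.053). Nat8 (2.19) also kept a male excess there (adjusted p = 0.018). Among sex chromosome genes Eif2s3y had 7.13, Ddx3y 5.18 and Xist -2.39 in Hypox mice, and the difference from sham mice was not called in these 3. Uty went from 2.70 to 3.43, and that difference was called (-0.73 ± 0.15, adjusted p = 0.015). In Hypox mice 30 min after GH the ratio was -0.88 for Hao2, -0.21 for Sult3a1 and 1.77 for Cyp4a12a, given beside the other values without a test.

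**Figure D5:**
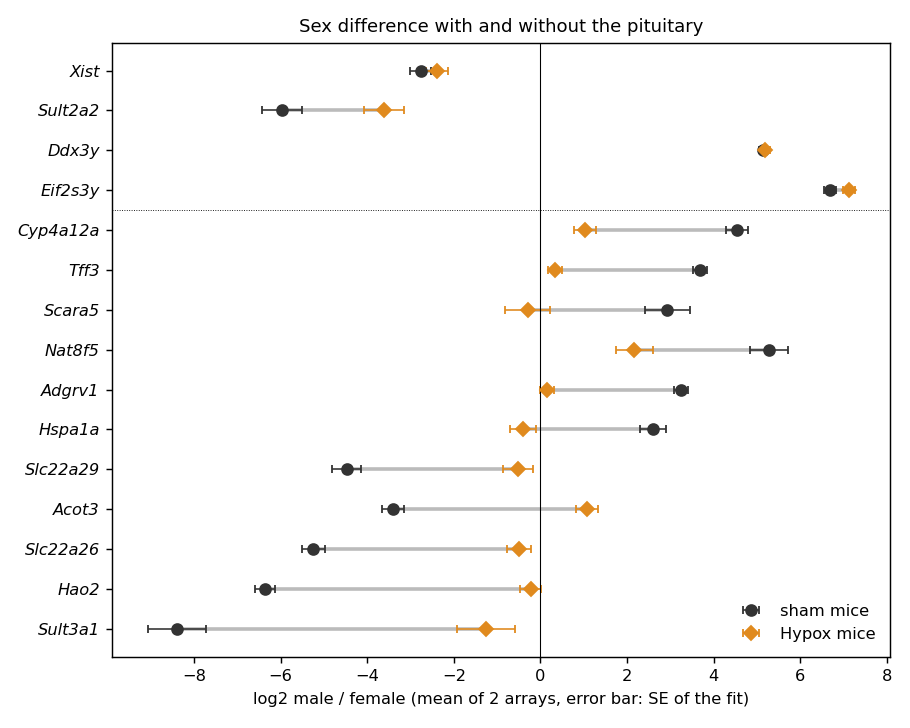
Log2 ratio of males over females in sham mice (black circles) and Hypox mice (orange diamonds), as the mean of 2 arrays with the SE of the fit. Below the dotted line are the largest differences between the 2 conditions, of which Hao2 moves from -6.36 to -0.23, and above it Xist, Sult2a2, Ddx3y and Eif2s3y, the last of which has 6.68 and 7.13.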

How the data were processed

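Liver RNA pools were hybridised in pairs to 22 two-colour Agilent arrays. Per the file headers, the authors' scanner files hold spot intensity from Feature Extraction 9.5.1.1 or 9.5.3.1 and a log10 ratio, and the deposited value table holds log2 ratios. For both sham arrays that table equalled the log2 of the scanner ratio after turning for dye. Mean and background intensities were corrected with limma 3.58.1 in R 4.3.3 (normexp, offset 50) and loess-normalised within arrays, with control spots at weight 0. Probes were named through RefSeq accessions (22072 of 41174) and otherwise keep the file's name, and the brightest probe stood for a gene. Tested were the genes for which the scanner rated that probe, in red or green, as well above background on each array of some comparison. limma was fitted to all 22 arrays, with 11 comparison coefficients and a dye term per probe, and p-values were adjusted by Benjamini-Hochberg over 26207 genes. The replicates were treated as separate pools, and whether a pool served both arrays of a comparison was not tested. The p-values measure the spread between the arrays of a comparison, pooled over all 11 comparisons and not over the sham arrays alone. Arrays of different comparisons that may share a pool were treated as independent. Arrays 1 and 2 lay on different slides scanned on the same day, so slide and replicate number cannot be told apart. The number of arrays limits the precision. The comparison, its gene lists and the named genes were chosen with earlier results of these data known. Named were the 12 largest rises and falls with a symbol, up to 6 called members of a list each way, up to 3 of its brightest members that did not pass, a fixed list of regulators, and the 6 largest differences each way from Hypox mice. A few genes that this rule names are not reported here. The fitting steps were tested on simulated data.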

Additional observations from a re-analysis of the deposited data

Results flagged for a closer look

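The sex difference in sham mice differed from that in Hypox mice in 1487 genes by the contrast of the limma fit, which tests the difference itself. The 6 largest on the male side, as the log2 ratio in sham mice minus that in Hypox mice, were Cyp4a12a (3.53), Tff3 (3.36), Scara5 (3.23), Nat8f5 (3.11), Adgrv1 (3.09) and Hspa1a (3.00). The largest reported on the female side were Sult3a1 (-7.15), Hao2 (-6.13), Slc22a26 (-4.74), Acot3 (-4.47) and Slc22a29 (-3.96). Each of these genes had an adjusted p under 0.05 in that contrast, of which the highest was that of Scara5 (0.023). The arrays of Hypox males over Hypox females lay on other slides and were scanned on another day than the sham arrays. Scan day and pituitary status therefore cannot be told apart in this contrast. Groups of 2 arrays are too small to test for a single array that stands apart.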

How the results depend on the processing

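The 2294 genes called between the sexes became 927 to 969 when 1 array of the sham comparison was left out, 2340 without either Hypox array in turn, 425 with median centring, 633 with the 2 arrays fitted alone and 4118 with a model of 10 linked groups. The 1487 genes called in the difference from Hypox mice became 581 to 842 when 1 sham or 1 Hypox array was left out (the Hypox arrays after seeing the data), 145 with median centring and 5808 with the linked model, the fit of the 2 arrays alone giving no such value. The cause of these shifts was not tested. The other alternatives gave 1817 to 2800 and 1024 to 2159 genes. Of the 180 called genes named in the text, 109 were still called without array 1, 121 without array 2, 98 with median centring and 158 with the muscle covariate, and none changed direction under these 4 choices. Averaging all probes turned Eif2s3x to 0.27, since its other probes ranged up to 1.91. With the replicate number as a block 2504 genes were called between the sexes and 1652 in the difference, and 176 of the 180 named genes passed; C3, C8a, Ces2b and Onecut2 did not. Deviations of same-numbered arrays correlated with those of the sham comparison between -0.35 and 0.595. They were over 0.1 for 3 other comparisons and under -0.1 for 3. A pool shared between comparisons could give either sign, depending on its side of the ratio. These correlations therefore do not show whether the numbers pair samples, and the main fit did not pair them. With 2 arrays a comparison, the SE limits which small differences pass. Low ratios of dim genes are compressed by the offset.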
